A study of Rattus norvegicus with 6 samples.

Results

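Glycolysis isoenzymes and the genes that set glucose uptake and pyruvate use were followed through the differentiation of cultured rat oligodendrocyte precursors. The group holds 10 genes, which were found in the deposited gene table by their symbols, out of 37991 genes in all: the hexokinases Hk1 and Hk2, the phosphofructokinase subunits Pfkm, Pfkl and Pfkp, the enolases Eno1 and Eno2, the lactate dehydrogenase subunit Ldha, the pyruvate dehydrogenase kinase Pdk1 and the glucose transporter Slc2a1. Each of the 10 symbols matched 1 gene, and all 10 passed the filter on low counts that left 17797 genes for testing. The control group comprised 3 RNA libraries of oligodendrocyte precursors of SD (as the labels name the strain) rats, grown in Raff medium and taken before differentiation. The differentiated group comprised 3 libraries of oligodendrocytes obtained from such precursors by the usual change of growth factors in the same medium. No gene was edited and no drug was named in either group. Replicates were numbered 1, 2 and 5 in both groups, and numbers 1 and 2 were titled day 0 for precursors and day 3 for differentiated cells. The comparison asks how messenger RNA levels differ between the 2 states of the culture.

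Glycolysis converts glucose to pyruvate in the cytosol. Glucose enters through transporters of the SLC2 family, is trapped by hexokinase as glucose 6-phosphate, and is committed to breakdown by phosphofructokinase, while enolase acts near the end of the chain. Pyruvate is then either reduced to lactate by lactate dehydrogenase or oxidised in mitochondria by the pyruvate dehydrogenase complex, which the PDK kinases switch off. Mature oligodendrocytes are known to pass lactate to the axons they wrap, and their own lipid synthesis draws on carbon from glucose. Several genes of the group, among them Slc2a1, Ldha, Pdk1, Eno1 and Hk2, are textbook targets of the hypoxia-inducible factor HIF-1, which binds the core motif ACGTG or GCGTG.

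The promoter sequences of the 3 genes that passed the test (Eno2, Slc2a1 and Pdk1) and of Ldha are shown because they differ in how many copies of that core motif lie near the start of the gene. Each stretch ends before the start of transcription and comes from RefSeq on the rat assembly GRCr8, in the reading direction of the gene. Capitals mark every ACGTG or GCGTG on either strand, so that CACGT and CACGC are the same motifs read from the other strand. The stretches lie at chr4:159267221-159267470 on the minus strand (Eno2), chr5:138002272-138002521 on the plus strand (Slc2a1), chr3:77113264-77113463 on the plus strand (Pdk1) and chr1:106507842-106508091 on the plus strand (Ldha). The window of Pdk1 is shown for 200 of its 250 bases, because the annotated gene begins inside it, and the last motif in it runs 1 base past the end shown.
Eno2: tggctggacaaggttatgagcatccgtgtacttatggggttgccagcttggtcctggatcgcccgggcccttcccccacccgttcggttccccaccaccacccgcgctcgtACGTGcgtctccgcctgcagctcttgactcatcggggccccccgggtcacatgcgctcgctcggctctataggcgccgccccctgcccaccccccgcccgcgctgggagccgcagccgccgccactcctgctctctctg
Slc2a1: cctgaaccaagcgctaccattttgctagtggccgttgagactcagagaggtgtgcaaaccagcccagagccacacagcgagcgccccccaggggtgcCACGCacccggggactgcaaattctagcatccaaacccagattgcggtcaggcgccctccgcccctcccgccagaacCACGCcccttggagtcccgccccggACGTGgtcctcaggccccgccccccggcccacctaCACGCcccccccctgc
Pdk1: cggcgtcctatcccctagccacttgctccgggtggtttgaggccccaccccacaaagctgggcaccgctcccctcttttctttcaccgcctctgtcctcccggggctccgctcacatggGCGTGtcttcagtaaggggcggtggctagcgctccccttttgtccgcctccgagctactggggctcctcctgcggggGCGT
Ldha: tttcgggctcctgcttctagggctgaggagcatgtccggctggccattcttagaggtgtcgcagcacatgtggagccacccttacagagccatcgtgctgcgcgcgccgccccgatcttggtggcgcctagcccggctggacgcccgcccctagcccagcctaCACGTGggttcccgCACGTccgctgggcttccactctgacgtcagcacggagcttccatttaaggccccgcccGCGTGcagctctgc

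Eno2, the gene with the largest change in the group, had 1 match, while Slc2a1 and Ldha had 4 each and Pdk1 had 2. The match in Eno2 began 139 bases before the start, and those in Slc2a1 began 153, 76, 51 and 16 bases before it. In Ldha, ACGTG matched at 87, 86 and 73 bases before the start. The first of these positions opens the palindrome CACGTG, the E-box read by MYC and related factors, which overlaps ACGTG on both strands. Of all 33469 promoter windows of this length in the table, 16.6% held ACGTG, 25.9% held GCGTG, 36.7% held at least 1 of them and 5.6% held CACGTG. Among the 14723 windows of tested genes, the shares were 20.3% for ACGTG, 40.2% for GCGTG, 51.1% for either and 7.4% for CACGTG. All 10 genes of the group were matched to this table. Of them, 9 (90.0%) held ACGTG or GCGTG in at least 1 of their windows, against 54.9% of the 12534 tested genes that have a window. Several of the 10 are textbook HIF-1 targets, and the windows were not matched for their content of G and C. The 2 shares are therefore a description only. The matches in Hk1, Pfkm and Pfkp lie inside the annotated gene, and the window of Hk1 that lies before its gene held none. Hk2 held neither in its window, which says only that these letters are not in these 250 bases. ACAAAG, a motif of the SOX family to which the oligodendrocyte factor Sox10 belongs, matched in the windows of Pfkm and Pdk1 alone among the 10 genes. The match in Pfkm again lies inside the annotated gene. ACAAAG was held by 16.3% of all windows and 12.3% of those of tested genes. A match is a description of the letters and not evidence that a factor binds there.

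Library totals ran from 55522101 to 79898629 reads, a 1.44-fold range, and the 10 genes together took between 0.246% and 0.300% of the reads of a library. The libraries numbered 1 in both groups lay apart from the others on the second principal component, at 45.6 and 94.6 against -65.2 to -6.50. Of 10 oligodendrocyte markers 10 were higher in differentiated cells, as their label says, whereas of 6 precursor markers 1 was higher and 0 were lower. Of 8 genes of cell division 7 were lower, and of 9 tested astrocyte markers 4 were higher. Each library holds a whole culture, in which fewer cells of a type and less RNA per cell cannot be told apart. In what follows, CPM is the read count scaled to a fixed total per library, with the TMM factors of edgeR, and serves to compare libraries. TPM is the authors' deposited value per transcript length and serves to compare genes. Values are listed in the order of replicates 1, 2 and 5. A gene was called when its p-value from edgeR's quasi-likelihood test, adjusted by the Benjamini-Hochberg method over all tested genes, was under 0.05. SE is the standard error of the log2 fold change.

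Of the 10 genes, 3 were higher in differentiated cells, 0 were lower and 7 were not called, where 5.65% of all tested genes were called higher and 3.21% lower (8.86% in all). The 3 genes were Eno2 at 3.97-fold, Slc2a1 at 1.87-fold and Pdk1 at 1.42-fold. Taken without adjustment, 5 of the 10 had a p-value under 0.05, all of them higher (Pfkm, Pfkl, Eno2, Pdk1 and Slc2a1), and 0 lower, where 23.1% of all tested genes had such a p-value, 12.4% higher and 10.7% lower. DESeq2 also called 3 higher and 0 lower, in a fit that called 15.6% of all genes, 8.56% higher and 7.05% lower. The median log2 fold change of the 10 genes was 0.34, and that of all tested genes was -0.04. In CPM, the 3 libraries of one group lay entirely above those of the other for 7 of the 10 genes. Differentiated cells were above for 5 and below for 2. Of all tested genes, 30.3% had groups that did not overlap in CPM, 16.5% with differentiated cells above and 13.8% below. On the TPM scale the groups of Pfkm, Pfkl, Eno1 and Pdk1 overlapped, while those of Ldha did not. With the replicate number as a block, which compares same-numbered libraries, 5 were called higher (Hk1, Pfkm, Eno2, Pdk1 and Slc2a1) and 2 lower (Pfkp and Ldha), in a fit that called 30.6% of all genes, 14.9% higher and 15.7% lower. Without both libraries numbered 1, 5 were called higher (Pfkm, Pfkl, Eno2, Pdk1 and Slc2a1) and 0 lower, where 17% of all genes were called, 8.69% higher and 8.29% lower. With library size alone as the scaling, 1 was called higher (Eno2) and 1 lower (Ldha), against 9.46% of all genes called, 3.81% higher and 5.65% lower. The same 1 and 1 were called by limma on log2(TPM + 1), against 8.61% of all genes called, 2.79% higher and 5.82% lower.

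**Figure D1:**
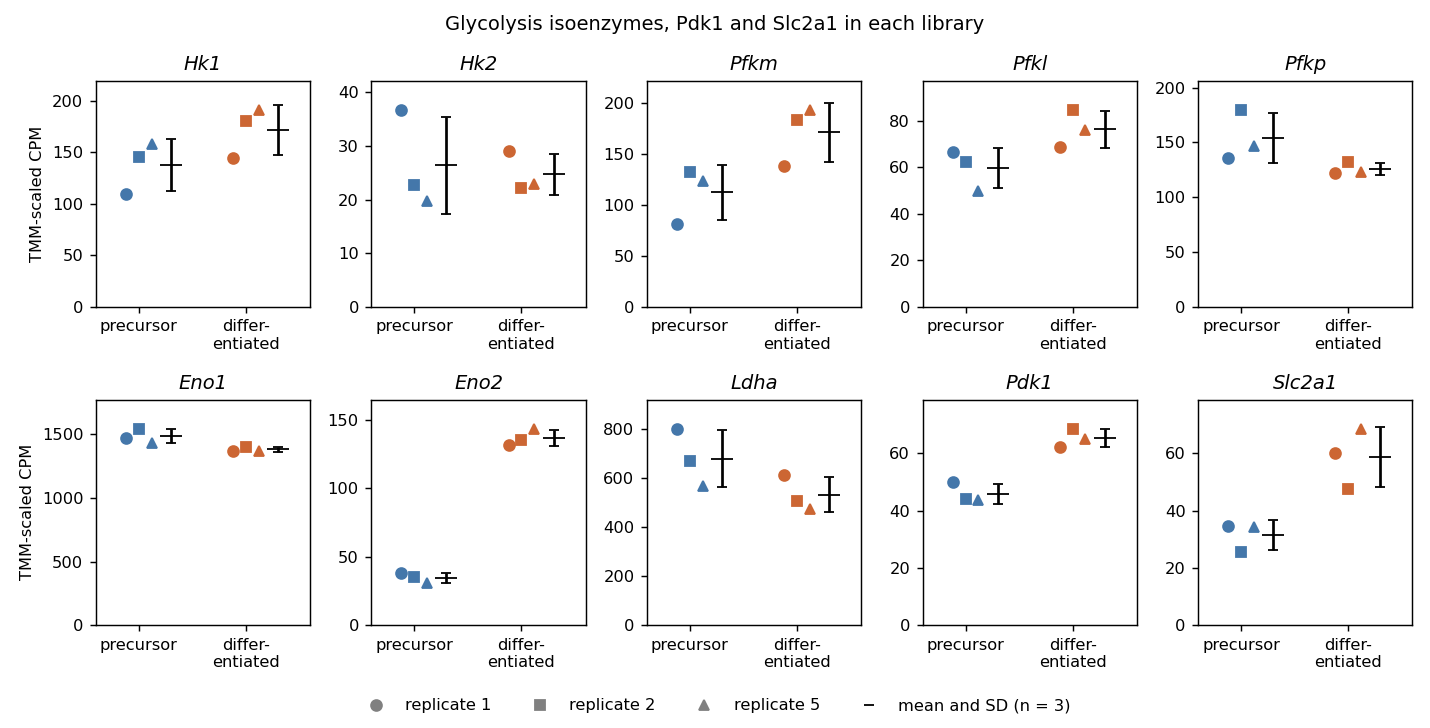
Level of each of the 10 genes as TMM-scaled CPM (vertical axes, each starting at 0) in the 3 precursor and 3 differentiated libraries, with marker shapes for the replicate number and bars for the mean and SD. Eno2 stands at 30.7 to 38.0 CPM in precursors and 132 to 144 CPM in differentiated cells, while the points of Hk1, Hk2 and Ldha overlap between groups.

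The transcript of the glucose transporter of the group was higher in differentiated cells. Slc2a1 (gene 24778), which encodes GLUT1, the transporter of glia and of the blood-brain barrier, was at 34.7, 25.3 and 34.2 CPM in precursors and at 60.0, 47.7 and 68.5 CPM in differentiated cells. Every differentiated library was above every precursor library. The means were 31.4 ± 5.26 and 58.7 ± 10.5 CPM (SD, n = 3), a log2 fold change of 0.90 (SE 0.18, adjusted p = 0.0264). Leaving out precursor 2 (adjusted p = 0.0883), precursor 5 (0.0683), differentiated 1 (0.054) or differentiated 5 (0.101) ended the call. So did library size alone as the scaling (adjusted p = 0.0576) and limma on log2(TPM + 1) (0.148). The direction held in each of these fits. Slc2a1 is also a gene of brain endothelium. The summed endothelial markers stood at 14.7 to 45.1 CPM in precursors and 15.4 to 30.9 CPM in differentiated cells, with 0 of 7 called and Cldn5 listed at 0 in every library. Flt1 made up most of this sum, at 20.2 and 17.8 CPM on average. The summed astrocyte markers stood at 4234 to 5935 CPM in precursors and 7545 to 7785 CPM in differentiated cells. Of 9 tested, 4 were called higher and 0 lower. The part of endothelial cells or of astrocytes in the level of Slc2a1 was not tested.

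Slc2a1 made up 24.5% ± 3.50 of the TPM summed over 5 genes of the SLC2 family (Slc2a1, Slc2a3, Slc2a6, Slc2a8 and Slc2a13) in precursors and 37.9% ± 4.46 in differentiated cells (SD, n = 3). The largest part on average came from Slc2a6, a transporter of intracellular membranes, at 52.6% and 41.6%. The sum leaves out other genes of the family, among them Slc2a9, at 5.10 and 3.55 TPM on average, so the shares hold for these 5 genes only. Slc2a3 (25551), the high-affinity transporter known from neurons, was rare, at 3.43 and 2.72 CPM, and was not called (log2 fold change -0.33, adjusted p = 0.479). Its TPM ratio to Slc2a1 was 0.0852 ± 0.0195 in precursors and 0.0333 ± 0.00657 in differentiated cells, a log2 difference of -1.35 (SE 0.26). The ratio was lower in 3 of 3 same-numbered pairs. The groups did not overlap, and the two-sided exact permutation test gave p = 0.1, the smallest that 3 against 3 libraries allow, or 0.167 adjusted over the 10 isoform ratios that were compared. Slc2a3 shares sequence with a copy, LOC100909595, whose counts were 95% to 100% of its own, so its absolute level is uncertain. Of 9 tested transporters other than Slc2a1, 0 were called by edgeR in either direction, and their median log2 fold change was 0.01. At an unadjusted p under 0.05, which 23.1% of all tested genes had, 1 was higher and 0 lower, and DESeq2, which called 15.6%, gave the same numbers.

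The hexokinases, which trap glucose in the cell, were not called. Hk1 (25058), the housekeeping form of brain that binds mitochondria, was at 109.9, 145 and 158 CPM in precursors and at 145, 180.3 and 191 CPM in differentiated cells. The groups overlapped, although the differentiated library was the higher in 3 of 3 pairs. The log2 fold change was 0.32 (SE 0.17, adjusted p = 0.317), and 0.33 with an adjusted p of 0.00847 under the replicate block. Hk2 (25059), the inducible form of muscle, fat and growing cells, was at 36.6, 22.7 and 19.8 CPM in precursors and at 29.1, 22.1 and 22.9 CPM in differentiated cells. Precursor 1 was the highest of the 6 libraries, and the other 5 lay between 19.8 and 29.1 CPM. The log2 fold change of Hk2 was -0.09 (SE 0.25, adjusted p = 0.875) and changed sign to 0.20 without precursor 1. By TPM, Hk1 was the more abundant of the pair in every library, at 88.3% ± 5.50 of their sum in precursors and 91.3% ± 2.1 in differentiated cells. The TPM ratio of Hk2 to Hk1 overlapped between the groups and was lower in 3 of 3 pairs, with a log2 difference of -0.41 (SE 0.47, two-sided exact permutation p = 0.5, adjusted 0.556) that ranged from -0.66 to 0.0047 when single libraries were left out.

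Other members of the hexokinase family were measured too. Hk3 (25060), a form known mainly from myeloid blood cells, was at 289, 143 and 115 CPM in precursors and at 229, 104 and 93.9 CPM in differentiated cells (log2 fold change of -0.36 with SE 0.45, adjusted p = 0.702, and 0.00676 with the block). Both libraries numbered 1 were the highest of their group. The summed microglial markers were at 724, 298 and 311 CPM in precursors and at 534, 304 and 299.8 CPM in differentiated cells, again highest in the libraries numbered 1, with 0 of 9 called. Their part in the level of Hk3 was not tested. Per length, Hk3 made up 53.5% ± 14.6 of the TPM of Hk1, Hk2 and Hk3 in precursors and 43.1% ± 14.8 in differentiated cells. Hkdc1, which the table lists as LOC100364027, was under 1 CPM on average in both groups, at 0.336 and 0.564 CPM, and was not called (log2 fold change 0.75, adjusted p = 0.774).

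The phosphofructokinase subunits, which form the tetramer that commits sugar to glycolysis, did not share a direction, and none passed the unpaired test. Pfkm (65152), the muscle-type subunit, was at 80.6, 132 and 123 CPM in precursors and at 138, 183 and 192 CPM in differentiated cells. All differentiated libraries were above all precursor libraries, though differentiated 1 exceeded precursor 2 by little. The means were 112 ± 27.4 and 171 ± 28.9 CPM (SD, n = 3), with a log2 fold change of 0.61 (SE 0.21, adjusted p = 0.139). With the block the log2 fold change was 0.63 at an adjusted p of 0.00177, and without both libraries numbered 1 it was 0.56 at 0.00955. Pfkl (25741), the liver-type subunit, was at 66.4, 62.1 and 49.9 CPM in precursors and at 68.5, 84.4 and 76.0 CPM in differentiated cells. The groups did not overlap, but precursor 1 and differentiated 1 were close to each other. Its log2 fold change was 0.36 (SE 0.15, adjusted p = 0.194, 0.0534 with the block, and 0.0411 without both libraries numbered 1). Pfkp (60416), the platelet-type subunit, was at 136, 179 and 147 CPM in precursors and at 122, 132 and 123 CPM in differentiated cells. Here every differentiated library was below every precursor library. The log2 fold change was -0.29 (SE 0.13, adjusted p = 0.226, and 0.0306 with the block), and it was -0.17 without precursor 2.

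The makeup of the subunits was compared by TPM. Pfkp supplied 48.6%, 48.6% and 46.3% of the summed TPM in precursors and 37.7%, 33.4% and 31.8% in differentiated cells. Pfkm supplied 28.4%, 35.1% and 38.3% in precursors and 41.8%, 45.6% and 49.0% in differentiated cells, so that Pfkm was the most abundant subunit in each differentiated library and Pfkp in each precursor library. The share of Pfkl was 18.3% ± 4.16 and 20.2% ± 0.876. The TPM ratio of Pfkp to Pfkm was 1.44 ± 0.256 in precursors and 0.761 ± 0.128 in differentiated cells, a log2 difference of -0.91 (SE 0.20), between -1.04 and -0.78 when single libraries were left out. The ratio of Pfkp to Pfkl was 2.69 ± 0.507 and 1.70 ± 0.128, a log2 difference of -0.65 (SE 0.18). For both ratios the groups did not overlap and 3 of 3 pairs were lower, with two-sided exact permutation p = 0.1 (adjusted 0.167). The ratio of Pfkl to Pfkm overlapped between groups and was lower in 3 of 3 pairs, with a log2 difference of -0.26 (SE 0.32, two-sided exact permutation p = 0.6, adjusted 0.6), which ranged from -0.47 to 0.039 when single libraries were left out. Among the 5 genes for the enzymes that make and break fructose 2,6-bisphosphate, the activator of phosphofructokinase, 0 were called by edgeR and the median log2 fold change was 0.12. At an unadjusted p under 0.05 (23.1% of all tested genes) 1 was higher and 1 lower, as also by DESeq2 (15.6%).

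**Figure D2:**
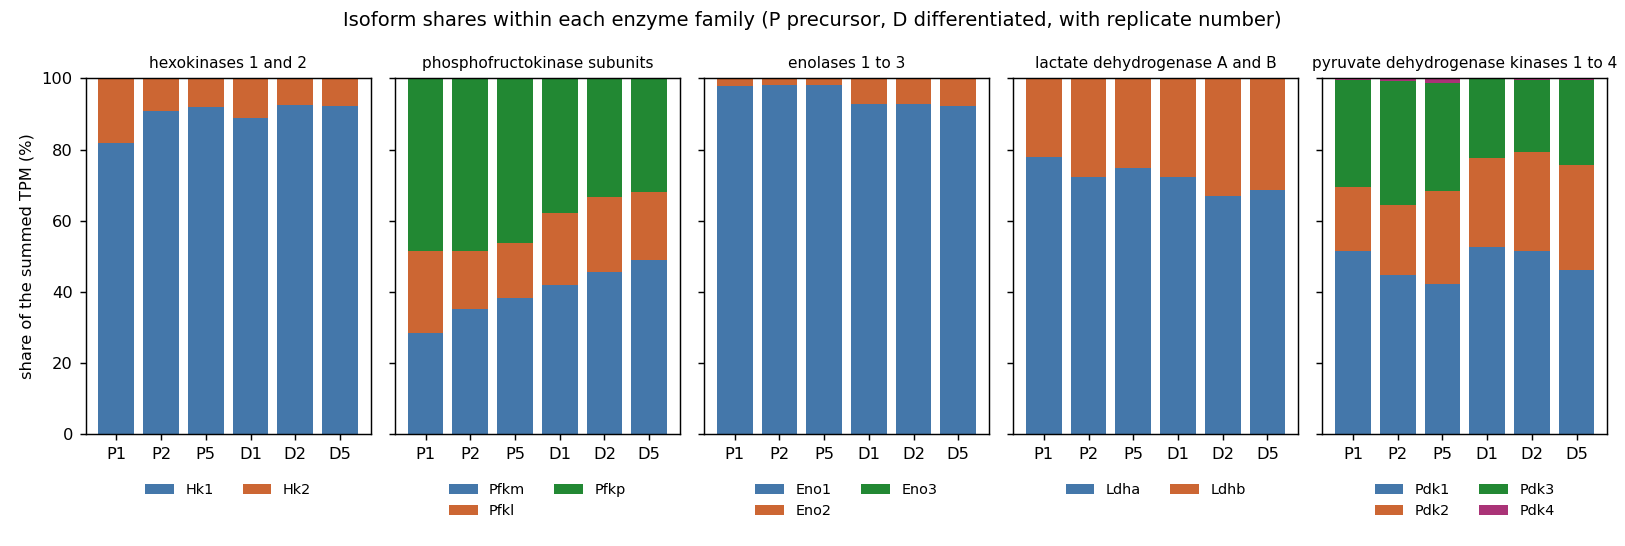
Share of the summed deposited TPM (vertical axis, percent) held by each isoform of 5 enzyme families, 1 bar for each library, with P for precursor and D for differentiated and the replicate number. Eno2 holds 1.64% to 1.96% of the enolase TPM in precursors and 6.91% to 7.51% in differentiated cells, and the share of Pfkp is smaller in each differentiated library than in each precursor library.

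Enolase showed the largest change of the group. Eno2 (24334), which encodes gamma enolase, the form known as neuron-specific enolase, was at 38.0, 34.8 and 30.7 CPM in precursors and at 132, 136 and 144 CPM in differentiated cells. These levels rest on 2212 to 2492 reads in precursor libraries and 7889 to 9458 in differentiated libraries. The 2 groups were far apart and narrow, at 34.5 ± 3.63 and 137 ± 6.03 CPM (SD, n = 3). The log2 fold change was 1.99 (SE 0.12, adjusted p = 0.000265), higher in 3 of 3 pairs. It was called in each of the 16 alternatives, with log2 fold changes from 1.67 to 2.1 and adjusted p-values up to 0.0044. Of 11 tested markers of neurons 0 were higher and 2 lower. The summed level of the 12 listed markers was 55.0 to 93.5 CPM in precursors and 41.3 to 49.1 CPM in differentiated cells. The part of neurons in the level of Eno2 was not tested.

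Eno1 (24333), the alpha form present in most cells, was at 1476, 1544 and 1435 CPM in precursors and at 1373, 1404 and 1369 CPM in differentiated cells. Each differentiated library was below each precursor library, by a small margin. The log2 fold change was -0.10 (SE 0.09, adjusted p = 0.568), and Eno1 was not called in any alternative. Eno3 (25438), the beta form of muscle, was near 2 CPM in both groups, at 2.09 and 1.98 CPM (log2 fold change of -0.08 with SE 0.40, adjusted p = 0.938). By TPM, the share of Eno2 in the 3 enolases went from 1.78% ± 0.168 in precursors to 7.13% ± 0.336 in differentiated cells, and Eno1 supplied 98.1% and 92.7%. The TPM ratio of Eno2 to Eno1 was 0.0181 ± 0.00175 and 0.0769 ± 0.00391, a log2 difference of 2.09 (SE 0.09, two-sided exact permutation p = 0.1, adjusted 0.167), between 2.03 and 2.17 when single libraries were left out. Eno1 thus stayed the main enolase in every library.

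Near-identical copies bear on the absolute level of the enolases. The table lists a copy of Eno2 as LOC100911625, gamma-enolase-like, whose counts were 98.9% to 99.6% of those of Eno2 in each library. Whether reads were counted at both genes or divided between them is not stated, so the level of Eno2 and its share of the enolases are uncertain. The copy had the same log2 fold change of 1.99. The 5 listed copies of Eno1 together held 3.26% to 4.23% of its counts and a copy of Ldha held 2.03% to 2.62%. With the counts of copies added to the genes they resemble, an alternative chosen after seeing the data, the same 3 of the 10 genes were called.

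Ldha (24533), the subunit of lactate dehydrogenase that favours lactate formation, was at 800.5, 670.3 and 566 CPM in precursors and at 612, 507 and 476 CPM in differentiated cells. The groups overlapped, since differentiated 1 was above precursor 5, but the differentiated library was the lower in 3 of 3 pairs. The means were 679 ± 117 and 531 ± 71.5 CPM (SD, n = 3), with a log2 fold change of -0.35 (SE 0.16, adjusted p = 0.242). Ldha was called lower with the block (log2 fold change -0.35, adjusted p = 0.00552). It was also called lower with library size alone as the scaling (-0.50, adjusted p = 0.0405) and by limma on log2(TPM + 1) (-0.61, adjusted p = 0.0173), scales on which the median of all tested genes was -0.19 and -0.17. On the deposited TPM scale the groups did not overlap, at 483, 475 and 484 in precursors and 318, 313 and 315 in differentiated cells, and the spread within each group was small.

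Ldhb (24534), the subunit of heart and neurons that favours pyruvate formation, was at 187 ± 27.6 and 195 ± 13.4 CPM and was not called (log2 fold change of 0.06 with SE 0.13, adjusted p = 0.849), with a sign that changed with the scaling. The TPM ratio of Ldhb to Ldha was 0.284, 0.383 and 0.337 in precursors and 0.383, 0.493 and 0.457 in differentiated cells. It was higher in 3 of 3 pairs, and the lowest differentiated library and the highest precursor library were nearly equal. The log2 difference was 0.41 (SE 0.16, two-sided exact permutation p = 0.1, adjusted 0.167). Ldha held 75.0% ± 2.77 of the TPM of the pair in precursors and 69.3% ± 2.73 in differentiated cells, and was the more abundant subunit in all 6 libraries.

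Pdk1 (116551), a kinase that inactivates pyruvate dehydrogenase and so holds pyruvate back from mitochondria, was at 49.9, 43.9 and 43.5 CPM in precursors and at 62.2, 68.5 and 65.0 CPM in differentiated cells. In CPM the groups did not overlap and each was narrow. The means were 45.8 ± 3.59 and 65.2 ± 3.16 CPM (SD, n = 3), with a log2 fold change of 0.51 (SE 0.11, adjusted p = 0.0320). This call depended on single libraries and on the scale. It ended when precursor 2 (adjusted p = 0.121), precursor 5 (0.112), differentiated 2 (0.171) or differentiated 5 (0.113) was left out, and with library size alone (log2 fold change 0.37, adjusted p = 0.101). On log2(TPM + 1) the log2 difference was 0.18 by limma (adjusted p = 0.598). The deposited TPM of the groups overlapped, at 14.1, 14.6 and 16.6 in precursors and 13.6, 19.7 and 18.9 in differentiated cells.

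The other kinases of the family were less abundant per length than Pdk1 in every library. Pdk2 (81530), the form found in most tissues, was at 11, 12.2 and 16.1 CPM in precursors and at 16.6, 23.1 and 24.2 CPM in differentiated cells, without overlap but not called (log2 fold change of 0.70 with SE 0.22, adjusted p = 0.101, and 0.00534 with the block). Pdk3 (296849) was at 20.0 ± 1.74 and 17.5 ± 2.61 CPM (log2 fold change -0.19, adjusted p = 0.551). Its TPM ratio to Pdk1 was 0.696 ± 0.102 in precursors and 0.445 ± 0.0636 in differentiated cells, with no overlap (log2 difference -0.64, SE 0.17, two-sided exact permutation p = 0.1, adjusted 0.167). Pdk4, the form induced by fasting, rested on 5 to 35 reads a library (log2 fold change -0.86, adjusted p = 0.618). The ratios of Pdk2 and of Pdk4 to Pdk1 overlapped between groups, with two-sided exact permutation p = 0.4 and 0.2 (adjusted 0.5 and 0.286), the first higher and the second lower in 3 of 3 pairs.

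**Figure D3:**
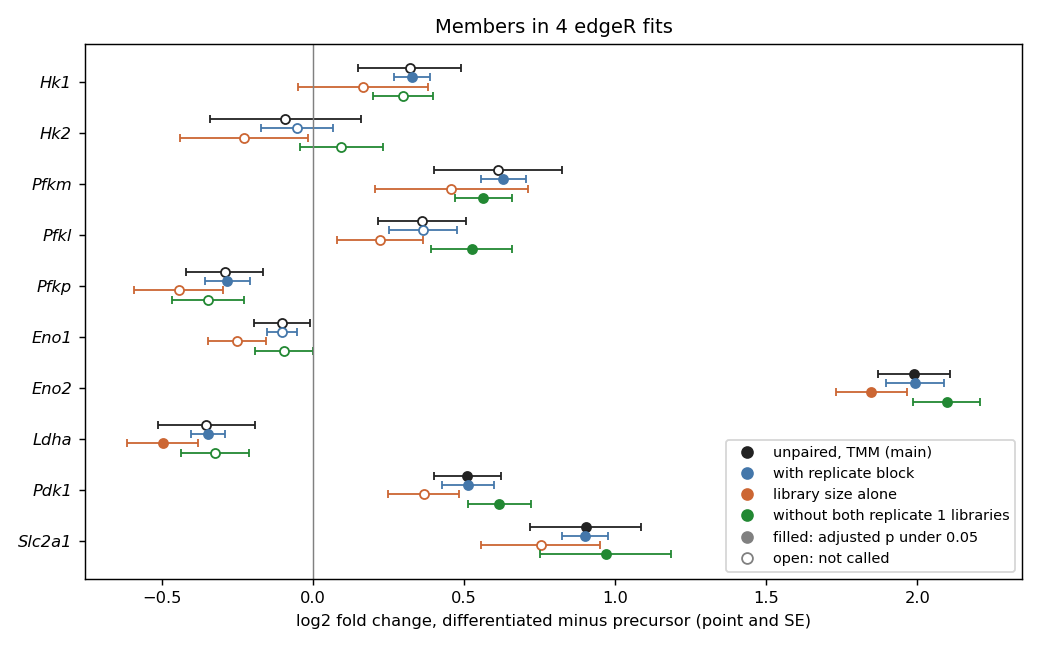
Log2 fold change of each of the 10 genes, differentiated minus precursor (horizontal axis, point with SE), in 4 edgeR fits, with filled points for an adjusted p under 0.05. Eno2 lies near 2 and is filled in all 4 fits, Pfkm and Pfkp keep their side of 0, and Hk2 changes side without the libraries numbered 1.

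Other genes of glucose metabolism and of its regulators were counted in 10 lists. Of 129 genes listed, 115 were tested, and 6 were higher and 2 lower, with a median log2 fold change of 0.03. Over all tested genes the shares called were 5.65% and 3.21%. Counts at an unadjusted p under 0.05 and by DESeq2 are given beside those of edgeR below, and stand against 23.1% and 15.6% of all genes. Among 14 other enzymes of glycolysis 2 were higher, 0 were lower and the median was 0.05 (3 higher and 0 lower unadjusted, 2 and 0 by DESeq2). The 2 were Aldoc (24191), the brain form of aldolase, from 391 ± 94.2 to 738 ± 70.3 CPM (log2 fold change of 0.92 with SE 0.19, adjusted p = 0.0273), and Bpgm (296973), which makes 2,3-bisphosphoglycerate, from 101 ± 16.7 to 157 ± 14.8 CPM (0.63, SE 0.15, adjusted p = 0.0430). Aldoc lost its call without precursor 5, differentiated 2 or differentiated 5 (adjusted p up to 0.127), and Bpgm in 5 of 6 fits that left out a library, all but that without differentiated 1 (up to 0.197). Library size alone also ended both calls (adjusted p = 0.0781 for Aldoc and 0.15 for Bpgm), as did limma on log2(TPM + 1) (0.172 and 0.364). Upper-quartile factors ended that of Bpgm (0.0648). Aldoc is also a marker of astrocytes. The summed astrocyte markers, Aldoc among them, lay between 4234 and 5935 CPM in precursors and between 7545 and 7785 CPM in differentiated cells. Gfap made up most of this sum, at 4072 and 5939 CPM on average, and was not called (adjusted p = 0.0849). Aldoc is itself 1 of the 4 astrocyte markers called higher. The part of astrocytes in the level of Aldoc was not tested.

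Genes around pyruvate dehydrogenase and glycerol phosphate held 2 calls that did not depend on the alternatives run. Pdhx (311254), the component that anchors dihydrolipoamide dehydrogenase in the pyruvate dehydrogenase complex, was at 34.5, 33.6 and 33.0 CPM in precursors and at 71.0, 70.5 and 75.9 CPM in differentiated cells (log2 fold change of 1.10 with SE 0.10, adjusted p = 0.00116). It was the 1 call among 19 genes of lactate and pyruvate transport and of the pyruvate dehydrogenase complex, which had a median of 0.06 (6 higher and 1 lower unadjusted, 4 and 1 by DESeq2). Gpd1 (60666), which turns a glycolytic intermediate into glycerol 3-phosphate, rose from 5.04 ± 0.924 to 18.5 ± 2.73 CPM (log2 fold change of 1.88 with SE 0.21, adjusted p = 0.00235), the 1 call among 6 genes (2 higher and 0 lower unadjusted and by DESeq2). Both were called in each of their 16 alternatives. In the pentose phosphate pathway 2 genes of 10 were higher and 3 lower unadjusted, and 1 and 3 by DESeq2. The 1 called by edgeR was Prps2 (24689), a synthetase of the nucleotide precursor phosphoribosyl pyrophosphate, which fell from 71.2 ± 0.835 to 47.8 ± 3.62 CPM (log2 fold change -0.57, adjusted p = 0.0180). That call ended when precursor 2, precursor 5, differentiated 2 or differentiated 5 was left out (adjusted p up to 0.076). Limma on log2(TPM + 1) ended it too (adjusted p = 0.0509). Of 14 genes of glycogen metabolism, 0 were called by edgeR, with a median of 0.15, with 4 higher and 3 lower unadjusted, and 2 and 0 by DESeq2.

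The genes that sense and answer low oxygen did not share a direction. Among 9 HIF factors and regulators 0 were higher and 1 was lower, with a median log2 fold change of -0.03 (1 higher and 3 lower unadjusted, 0 and 2 by DESeq2). The 1 was Egln3 (54702), an oxygen-dependent hydroxylase that is itself a HIF target, which fell from 106 ± 17.1 to 51.8 ± 4.0 CPM (log2 fold change of -1.03 with SE 0.15, adjusted p = 0.00649) and was called in each of 16 alternatives. Of 16 hypoxia targets outside glycolysis 2 were higher and 0 lower, unadjusted and by DESeq2 as well, with a median of -0.16. Bnip3 (84480), a mitophagy receptor, rose from 80.6 ± 4.86 to 145 ± 21.6 CPM (log2 fold change 0.84, adjusted p = 0.00933), and Ddit4 (140942), an inhibitor of the growth kinase mTOR, from 4.24 ± 1.33 to 12.2 ± 5.05 CPM (1.52, SE 0.37, adjusted p = 0.0469). Ddit4 kept its call in only 1 of the 6 fits that left out a library, that without differentiated 1 (adjusted p up to 0.165). It also lost its call with library size alone (adjusted p = 0.0841), upper-quartile factors (0.0539) and limma on log2(TPM + 1) (0.156). Bnip3 lost its call on the TPM scales alone (adjusted p up to 0.0585). Of 13 other regulators of glycolytic genes, such as Myc and the AMP kinase subunits, 0 were called by edgeR, with a median of 0.14, with 1 higher and 1 lower unadjusted, and 0 and 1 by DESeq2.

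**Figure D4:**
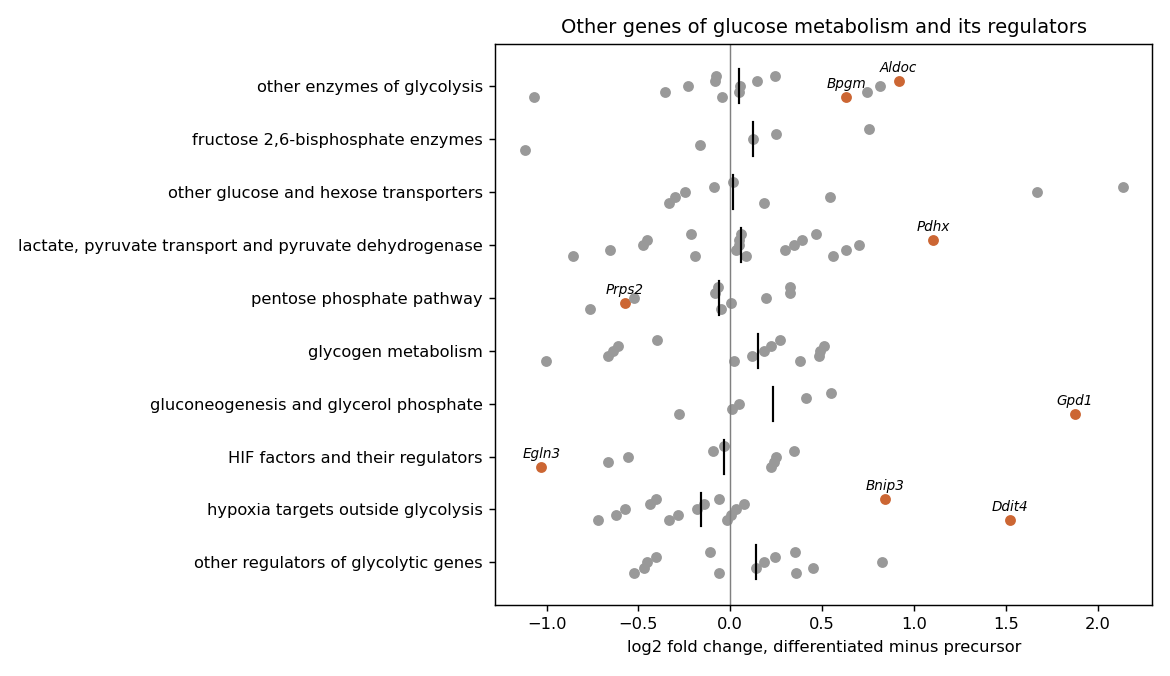
Log2 fold change, differentiated minus precursor (horizontal axis), of each tested gene in 10 lists of glucose metabolism and its regulators, with a black bar for the median of a list and orange for an adjusted p under 0.05. The 8 called genes are named, Gpd1 at 1.88 and Egln3 at -1.03 being the farthest from 0 on either side.

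The gene of these lists whose log2 CPM followed each of the 10 genes most closely over the 6 libraries was found by Pearson's r, as a description. Eno2, Pdk1 and Slc2a1 shared the same closest gene, Pdhx, with r of 0.998, 0.964 and 0.920. Eno1 was closest to Tpi1, the triosephosphate isomerase of glycolysis, with r of 0.992, and Pfkm to the fructose transporter Slc2a5 with 0.986. Slc2a5 (65197) itself was rare, at 0.900 and 2.87 CPM, and was not called (log2 fold change 1.67, adjusted p = 0.0942). Hk2 was closest to Slc2a6 (0.986), Hk1 to Mtor (0.978), Ldha to Pgm2 (0.954), Pfkl to Eno4 (0.940) and Pfkp to Prps1 (0.901). The 6 points share the difference between the groups and the position of the libraries numbered 1.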

How the data were processed

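RNA of 3 precursor and 3 differentiated libraries was prepared with a stranded total RNA kit, per the labels' protocols. Per the submitters' processing notes, reads were handled with bcl2fastq (2.20.0), Trimmomatic (0.38), HISAT2 (2.1.0) and, last in the list, StringTie (2.1.3b). The build they name, GRCh38, is human, whereas the deposited table holds rat gene identifiers. No source used here gives the annotation or strand setting, so overlapping or antisense genes may share reads. The authors deposited for each library a whole-number read count, an FPKM and a TPM of 37991 genes. The deposited FPKM values served only to recompute the isoform ratios as an alternative, as did the counts. The deposited TPM values served for shares and ratios between isoforms.

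Counts were tested with edgeR 4.0.16 in R 4.3.3 (quasi-likelihood test, robust estimation, TMM scaling, the package's low-count filter), 3 against 3, with Benjamini-Hochberg adjustment over 17797 genes. The SE is the log2 fold change divided by the square root of F. Alternatives were DESeq2 1.42.0, library size alone, upper-quartile factors, no filter, no robust estimation, limma 3.58.1 on log2(TPM + 1) and log2(TPM + 0.1), a replicate block, each library left out, both libraries numbered 1 left out, and, chosen after seeing the data, copies added. The fitting code was tested on simulated data. No SE or p-value was given to a motif match, which came from RefSeq promoters of GRCr8.

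Groups came from the sample labels. Whether replicates came from separate cultures or animals is not in the labels. The p-values then cover only the spread among these samples, which may be technical. Deviations from the group means correlated across genes by 0.337, 0.150 and 0.182 between libraries with the same number 1, 2 and 5. Between different numbers the correlations ran from -0.227 to 0.0872, and the negative ones all involved a library numbered 1. Deviations from a mean of 3 libraries are tied to each other, so these correlations are not independent. The numbers may pair the samples, although no label states it. The unpaired test was therefore kept, and blocked values stand beside calls that the block altered. The 10 genes and the 10 lists were chosen with earlier results of these data known. Named genes are the 10 genes, their close relatives, up to 3 called genes of each list by smallest p, and the list gene most like each of the 10 by Pearson's r. Slc2a6, Slc2a9, Flt1, Gfap and LOC copies were named after their values were seen. The result of 1 further relative is not reported here.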

Additional observations from a re-analysis of the deposited data

How the results depend on the processing

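Of all tested genes 1005 were called higher and 571 lower. The counts were 1521 and 1252 with DESeq2, 2643 and 2797 with the replicate block, 1546 and 1475 without both libraries numbered 1, 497 and 1036 on log2(TPM + 1), and 512 and 1096 on log2(TPM + 0.1). With library size alone 678 were higher and 1006 lower. Leaving out single libraries gave 456 to 911 higher and 162 to 579 lower. Among the 10 genes, 3 were higher and 0 lower. Library size alone and both TPM scales gave 1 higher (Eno2) and 1 lower (Ldha), the block 5 higher and 2 lower, leaving out both libraries numbered 1 gave 5 higher, and leaving out single libraries 1 to 3 higher and 0 to 0 lower. Among the 115 list genes, 6 were higher and 2 lower. The counts were 15 and 8 with DESeq2, 3 and 8 with library size alone, 2 and 4 on either TPM scale, 28 and 16 with the block, and 14 and 6 without both libraries numbered 1, with 4 lower by upper-quartile factors. Leaving out single libraries gave 3 to 8 higher and 1 to 3 lower. The median log2 fold change of all tested genes was -0.04 with TMM, -0.19 with library size alone, -0.17 on log2(TPM + 1) and -0.26 on log2(TPM + 0.1). Beside Hk1, Pfkm, Pfkp, Ldha, Hk3 and Pdk2, the block changed no call of the 10 genes, of their tested relatives in these fits or of the called list genes. Signs turned for 4 genes that were not called. Ldhb, at 0.06, was at -0.088 with library size alone, -0.19 on log2(TPM + 1) and -0.20 on log2(TPM + 0.1), and ranged from -0.054 to 0.16 when single libraries were left out. Over the same single-library fits Hk2, at -0.09, ranged from -0.27 to 0.20, Hk3, at -0.36, from -0.87 to 0.12, and Eno3, at -0.08, from -0.32 to 0.28. Hk2 was at 0.093 without both libraries numbered 1. The cause of these changes was not tested. The isoform ratios moved by less than their spread between replicates, but leaving out 1 library took the log2 difference of Hk2 to Hk1 up to 0.0047 and that of Pfkl to Pfkm up to 0.039, past 0. Single-library fits leave 2 against 3 libraries, and Pdk4 rests on 5 to 35 reads a library and its fold change has an SE of 0.85.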
